A study of Mus musculus with 43 samples.

Results

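Transcripts of 9 genes of the endothelial adherens junction and its neighbouring surface proteins were described in endothelial cells (EC) of the mouse brain: Cdh5, Pecam1, Esam, Ctnnb1, Ctnnd1, Ctnna1, Cd34, Mcam and Emcn. They were taken from the count table by gene symbol, and all 9 of 9 were found once among its 54532 genes. All 9 were also among the 29120 genes that reached 0.5 CPM (counts scaled to the size of the library) in 1 library or more and were tested.

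The libraries came from mice of 7 inbred strains, all aged 2 months, with no treatment or transgene named in the labels. The 129S1/SvImJ strain gave 9 libraries, C57BL/6J, CAST/EiJ, NOD/ShiLtJ and WSB/EiJ gave 6 each, and A/J and DBA/2J gave 5 each. CAST/EiJ and WSB/EiJ are recently wild-derived (12 libraries), and the other strains have long been inbred (31 libraries). Cortex gave 21 and hippocampus 22 of the 43 libraries, 16 were female and 27 male, and the titles carry a tag, high in 29 and low in 14, whose meaning the sources used here do not give. Cells were sorted as CD31-positive, CD45-negative and CD11b-negative. CD31 is the product of Pecam1, so its level is not independent of the sort. The labels do not tie libraries to mice, so p-values measure the spread between libraries, part of which may be technical.

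Endothelial cells are held together by adherens junctions. In these, VE-cadherin (Cdh5) of neighbouring cells binds in the gap between them, and its tail holds beta-catenin (Ctnnb1) and p120-catenin (Ctnnd1). Alpha-catenin (Ctnna1) links beta-catenin to actin, while p120-catenin keeps the cadherin at the surface, and beta-catenin also carries the Wnt signal to the nucleus, which brain EC need to form and keep the blood–brain barrier. PECAM-1, ESAM and MCAM are adhesion proteins of the immunoglobulin superfamily, and CD34 and endomucin (Emcn) are sialomucins of the endothelial surface.

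The RefSeq promoter table (build GRCm38.p6, 250 bases before to 50 after a gene's start) held entries for 5 of the 9 genes: Ctnnb1, Ctnnd1, Cd34, Mcam and Emcn. Those of Cd34, Emcn and Ctnnb1 are shown because Cd34 and Ctnnb1 carry the differences described here and Emcn varied with Cd34 over the libraries. Capitals mark AGGAAG on either strand (written CTTCCT on the reverse strand), a sequence that factors of the ETS family can bind. It was found 1 time for Cd34, at chr1:194938571-194938870 (plus strand), and 2 times for Emcn, at chr3:137340828-137341127 (plus strand). The Ctnnb1 window shown, chr9:120933150-120933449 (plus strand), had none. It held GGGCGG, a GC box, 3 times on either strand, with a GC content of 75.3% against 50% for Cd34 and 41.0% for Emcn. Another Ctnnb1 window, chr9:120933328-120933627 (plus strand, not shown), also had no AGGAAG. It held GGGCGG 3 times, with a GC content of 75.0%. AGGAAG was also found in both windows of Ctnnd1, 2 times and 1 time, while the r of Ctnnd1 over the libraries was -0.11 with Cd34 and -0.03 with Emcn.
Cd34: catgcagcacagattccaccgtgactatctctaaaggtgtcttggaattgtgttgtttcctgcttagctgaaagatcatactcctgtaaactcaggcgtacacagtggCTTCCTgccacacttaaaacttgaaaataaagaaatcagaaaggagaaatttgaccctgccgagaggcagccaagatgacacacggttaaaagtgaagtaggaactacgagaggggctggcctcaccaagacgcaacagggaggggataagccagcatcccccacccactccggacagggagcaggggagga
Emcn: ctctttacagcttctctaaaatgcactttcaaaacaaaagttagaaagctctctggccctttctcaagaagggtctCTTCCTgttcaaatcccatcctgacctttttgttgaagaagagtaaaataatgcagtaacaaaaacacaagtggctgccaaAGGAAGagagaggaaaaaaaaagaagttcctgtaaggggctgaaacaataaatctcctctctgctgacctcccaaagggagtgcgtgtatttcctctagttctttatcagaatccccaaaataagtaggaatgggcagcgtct
Ctnnb1: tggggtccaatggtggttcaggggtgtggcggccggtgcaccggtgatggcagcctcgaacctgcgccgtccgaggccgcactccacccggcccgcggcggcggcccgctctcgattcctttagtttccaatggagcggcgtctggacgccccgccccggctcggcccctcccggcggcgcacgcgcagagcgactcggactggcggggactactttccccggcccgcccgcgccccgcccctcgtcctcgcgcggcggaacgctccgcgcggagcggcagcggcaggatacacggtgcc
AGGAAG was present in 35.4% and GGGCGG in 35.7% of all 32851 promoters of the table. A match is a description of the letters only.

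Depth ran from 1626534 to 49372356 counts per library, with a median of 5790701. Female libraries were deeper (median 21242058) than male ones (median 5257353). Counts on the rRNA-like genes Gm23935, Gm42418 and Gm26917 took 1.59% to 12.1% of female libraries and 13% to 29.3% of male libraries, with no overlap. Summed over 20 other endothelial markers, the level was 12892 to 27029 CPM, all 20 being detected at a mean of 1 CPM or more. Summed levels of the other lists ran from 2161 to 9756 CPM for 10 pericyte markers, from 1127 to 19727 CPM for 10 astrocyte markers and from 0 to 115 CPM for 10 microglia and macrophage markers. Marker sums were also taken for smooth muscle (311 to 914 CPM), neurons (34.5 to 800), oligodendrocytes (14.7 to 300), vessel-associated fibroblasts (27.4 to 233), choroid plexus (0 to 480) and platelets (0 to 54.8 CPM). No marker of any list was at 0 in every library. Because the samples are bulk RNA, fewer cells of a type and less RNA per cell cannot be told apart.

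Per kilobase of exon, Ctnnb1 (237 CPM per kb) and Cdh5 (217 CPM per kb) had the highest mean levels, followed by Pecam1 (138) and Esam (116). Ctnna1 (68.3 CPM per kb), Cd34 (51.0) and Emcn (27.1) were lower, and Mcam (10) and Ctnnd1 (4.60) were lowest. Ctnnd1 shares 4482 of its 7319 exonic bases, or 61.2%, with Gm28635 on the same strand, and Gm28635 had 0 counts in all 43 libraries, so the level of Ctnnd1 is uncertain. Divided by the bases that are its own, it was 11.9 CPM per kb. Ctnnb1 shares 14.6% of its exonic bases with Ulk4 on the opposite strand, but Ulk4 had a mean of only 3.21 CPM, and whether the counting used strand is not given in the sources used here.

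Over the 43 libraries Pecam1, the gene of the sorting marker, was the most even member, at 856 ± 161 CPM (SD, n = 43), a coefficient of variation of 18.8%. Ctnna1 (19.3%) and Cdh5 (23.9%, 913 ± 218 CPM) came next. Mcam (64.3%, 33.6 ± 21.6 CPM) and Ctnnd1 (73.4%, 33.7 ± 24.7 CPM) varied most, and they were also the members with the fewest counts: 2 libraries held 3 counts or fewer of one or the other, whereas no library held fewer than 99 counts of any other member. The plot of the members by strain shows these values.

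**Figure D1:**
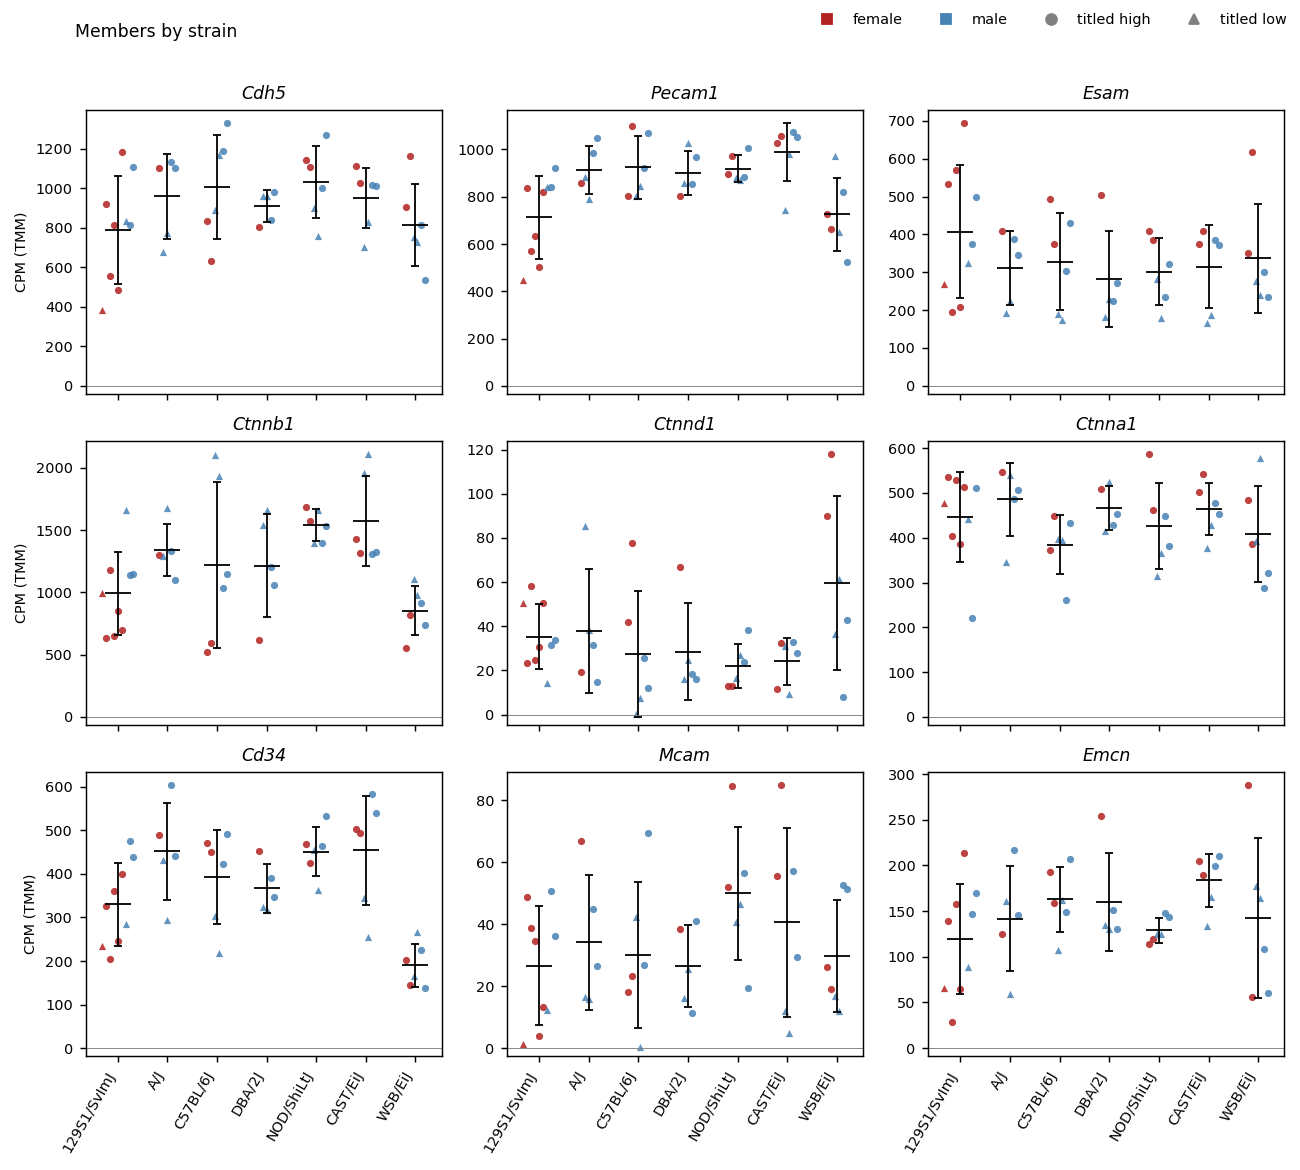
CPM (scaled by TMM) of each member in each library, by strain; points are libraries, coloured by sex and shaped by title tag, and bars are the mean ± SD of the strain. Cd34 lies lowest in WSB/EiJ (190 CPM on average), while most other strains overlap in each gene.

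The strains differed in Cd34. Its mean was lowest in WSB/EiJ, a wild-derived strain. In WSB/EiJ the libraries held 202 CPM (female hippocampus, high), 145 (female cortex, high), 166 (male cortex, low), 266 (male hippocampus, low), 225 (male cortex, high) and 139 CPM (male hippocampus, high). In the 37 libraries of the other strains the lowest value was 205 CPM, the median 424 and the highest 604. Of the 6 WSB/EiJ libraries, 4 lay below every library of the other strains, and 5 of those 37 lay at or below the highest WSB/EiJ library, so the groups overlapped.

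The fitted difference of Cd34 in WSB/EiJ was -1.09 ± 0.19 on the log2 scale (SE), or 2.13-fold lower than in the other strains, with an adjusted p of 0.00013 (edgeR's quasi-likelihood test, Benjamini-Hochberg over all genes). In that comparison 2.41% of all tested genes were called, and Cd34 was the only member among them. The difference was called in all 43 fits that each left out 1 library, at -1.21 to -1.01. It was -1.02 in male libraries alone (adjusted p = 0.00284), -1.09 in hippocampus alone (adjusted p = 0.023) and -1.07 in cortex alone, where it missed the threshold (adjusted p = 0.0742).

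Depth and another cell type moved with this difference. WSB/EiJ libraries were shallow (1626534 to 5331064 counts, against 2710719 to 49372356 in the others), but they still held 226 to 828 counts of Cd34 each. Summed pericyte markers were 5242 to 9756 CPM in WSB/EiJ, with a median of 9035, against 2161 to 8751 CPM and a median of 4035 elsewhere, and all 10 of the list were detected. Neuronal markers had a median of 355 CPM in WSB/EiJ and 136 CPM elsewhere. The sum of the 20 other endothelial markers was near the same in both (median 20324 and 20210 CPM), although their mean log2(CPM+1) was lower in WSB/EiJ (median 8.88 against 9.33). With that mean as a covariate the difference in Cd34 was -0.70 (adjusted p = 0.0106). Divided by the summed endothelial markers, the log2 ratio of WSB/EiJ to the others was -1.06, against -1.08 from CPM. The part of the pericyte and neuronal markers in the result was not tested.

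Ordered by its mean, Cd34 was 454 ± 126 CPM in CAST/EiJ (SD, n = 6), 452 ± 112 in A/J (n = 5), 451 ± 56.8 in NOD/ShiLtJ (n = 6), 393 ± 109 in C57BL/6J (n = 6), 367 ± 55.6 in DBA/2J (n = 5), 330 ± 95.7 in 129S1/SvImJ (n = 9) and 190 ± 49.6 CPM in WSB/EiJ (n = 6). Of the steps in this order, only that from 129S1/SvImJ to WSB/EiJ exceeded the larger SD of the pair. Over all members, 2 of 54 such steps did, the other being Pecam1 from DBA/2J (901 CPM) to WSB/EiJ (725 CPM). These orders mix the sexes. In male mice alone Cd34 was 399 ± 102 CPM in 129S1/SvImJ (n = 3), above C57BL/6J (359 ± 122) and DBA/2J (345 ± 33.0). The highest male mean was 454 ± 70.8 in NOD/ShiLtJ and the lowest 199 ± 57.3 CPM in WSB/EiJ (n = 4 in each of these 4).

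Ctnnb1 also varied among strains, but less firmly. Its mean ran from 1576 ± 361 CPM in CAST/EiJ and 1541 ± 127 in NOD/ShiLtJ to 995 ± 333 in 129S1/SvImJ and 853 ± 195 CPM in WSB/EiJ. Of the 9 libraries of 129S1/SvImJ, however, 6 were female. In male mice alone the mean of Ctnnb1 was 1317 ± 301 CPM in 129S1/SvImJ (n = 3) and 937 ± 155 CPM in WSB/EiJ (n = 4). It was 1352 ± 239 CPM in male A/J and 1365 ± 283 CPM in male DBA/2J (n = 4 each). The highest male means were 1676 ± 419 in CAST/EiJ, 1554 ± 538 in C57BL/6J and 1496 ± 129 CPM in NOD/ShiLtJ (n = 4 each). Over both sexes C57BL/6J had 1221 ± 664 CPM (n = 6), and its 2 female libraries held 519 and 590 CPM. The test among the 7 strains called 2 of the 9 members, Cd34 (adjusted p = 0.00104) and Ctnnb1 (adjusted p = 0.0453), where 2.68% of all genes were called. The fitted range between the highest and lowest strain was 1.25 for Cd34 and 0.88 for Ctnnb1 on the log2 scale. Cd34 was called in 43 of the 43 fits without 1 library, but Ctnnb1 in only 13 of them, with adjusted p between 0.0126 and 0.105. Without WSB/EiJ neither gene was called. In WSB/EiJ against the other strains Ctnnb1 was -0.61 ± 0.18 (adjusted p = 0.0545).

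None of the remaining members was called in any strain. In the other 6 contrasts of 1 strain against the rest, edgeR called 0 members, while it called 1.46% of all genes in 129S1/SvImJ, 1.35% in CAST/EiJ, 0.529% in C57BL/6J, 0.254% in A/J, 0.192% in DBA/2J and 0.185% in NOD/ShiLtJ. DESeq2 called 1 member over all 7 contrasts, Cd34 in WSB/EiJ, and its share of all genes in these contrasts is not given here. An unadjusted p under 0.05 was reached by 3 members in 129S1/SvImJ, 2 in CAST/EiJ, 2 in NOD/ShiLtJ and 1 in A/J. Ctnnd1 had its highest mean in WSB/EiJ, at 59.5 ± 39.6 CPM, from 8.06 to 118 CPM, against 0.257 to 85.2 CPM elsewhere, a difference of 1.05 ± 0.40 (adjusted p = 0.16). Cdh5 ranged from a mean of 1031 ± 183 CPM in NOD/ShiLtJ to 789 ± 271 CPM in 129S1/SvImJ, and Pecam1 from 989 ± 124 CPM in CAST/EiJ to 713 ± 174 CPM in 129S1/SvImJ (adjusted p among strains 0.818 and 0.318). In male mice alone 129S1/SvImJ had 918 ± 165 CPM of Cdh5 and 867 ± 46.7 CPM of Pecam1 (n = 3). There the lowest means were those of WSB/EiJ, at 708 ± 119 and 741 ± 194 CPM (n = 4).

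Wild-derived and long-inbred strains were compared with libraries as the units, so the p-values and intervals do not measure the spread among strains. No member was called, none had an unadjusted p under 0.05, and DESeq2 called 0 as well, while edgeR called 0.749% of all genes. Pecam1 was 857 CPM in wild-derived and 856 CPM in long-inbred strains, with a 95% interval of the log2 difference of -0.22 to 0.22. For Cdh5 the interval was -0.31 to 0.18. Cd34 was 322 CPM in wild-derived and 391 CPM in long-inbred strains (-0.28 ± 0.17, adjusted p = 0.754), a mean over strains that lay at both ends of its order over all libraries. Without CAST/EiJ, which leaves WSB/EiJ as the only wild-derived strain, the difference of Cd34 was -1.04 (adjusted p = 0.00162).

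Cortex and hippocampus EC likewise gave no call among the members, with 0.0755% of all genes called by edgeR. One member had an unadjusted p under 0.05, and DESeq2 called 0. That member was Emcn, at 128 CPM in cortex and 164 CPM in hippocampus (-0.36 ± 0.17, adjusted p = 0.669). In male mice alone Emcn was 143 CPM in cortex and 148 CPM in hippocampus. It was higher in hippocampus in 11 of 17 pairs of libraries of the same strain, sex and tag. Cdh5 differed by -0.05 ± 0.11 and Pecam1 by 0.03 ± 0.10, with intervals of -0.28 to 0.17 and -0.17 to 0.23. Whether the region difference depended on origin was tested as an interaction, which gave 0 called genes, 675 at an unadjusted p under 0.05, and no member among these.

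**Figure D2:**
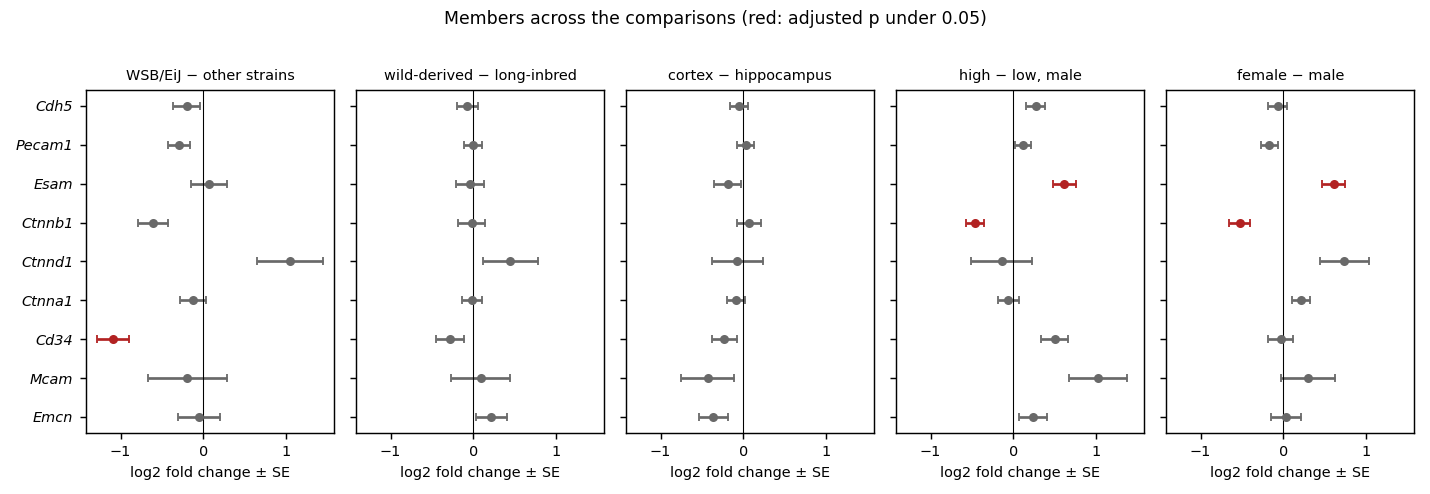
Log2 fold change of each member (horizontal axis) with its SE in 5 comparisons, the first-named group minus the second; red marks an adjusted p under 0.05. Cd34 is called in WSB/EiJ, and Esam and Ctnnb1 are called in opposite directions by title tag in male mice and by sex.

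The title tag separated 2 members in opposite directions in male mice. Esam was higher, and Ctnnb1 lower, in libraries titled high. Esam had a lowest value of 224 CPM, a median of 334 and a highest of 498 in the 14 high libraries, and 165, 192 and 324 CPM in the 13 low ones. Of the low libraries, 8 lay below every high library. Ctnnb1 had 737, 1147 and 1536 CPM in the high libraries and 981, 1662 and 2111 CPM in the low ones, of which 9 lay above every high library.

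Esam differed by 0.62 ± 0.14 on the log2 scale, or 1.54-fold (adjusted p = 0.00843, edgeR), and Ctnnb1 by -0.46 ± 0.11 (adjusted p = 0.0141). They were the only members among the 1.06% of 27529 genes called. In pairs of a high and a low library of the same strain and region, Esam was higher in the high library in 11 of 13 pairs and Ctnnb1 lower in 11 of 13. The 2 exceptions of Esam were the hippocampus pairs of NOD/ShiLtJ (235 against 283 CPM) and WSB/EiJ (236 against 240 CPM). Within cortex the differences were 0.63 and -0.55, and within hippocampus 0.61 and -0.39, none of them called at these sizes (adjusted p from 0.181 to 0.715). The interaction of tag and region called 0 genes, with 563 at an unadjusted p under 0.05 and no member among them.

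**Figure D3:**
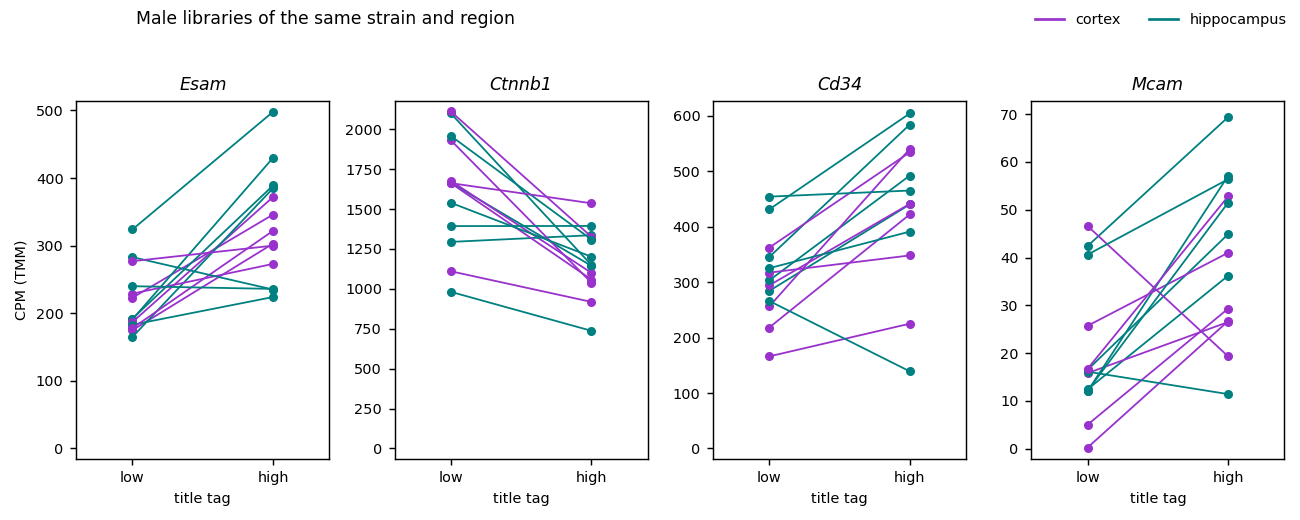
CPM of Esam, Ctnnb1, Cd34 and Mcam in male libraries titled low and high; each line joins the 2 libraries of 1 strain and region, which may come from different mice. Esam rises in 11 and Ctnnb1 falls in 11 of 13 lines.

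The sialomucin Cd34 and the adhesion gene Mcam had higher means in the high libraries but missed the threshold. Cd34 was 436 against 309 CPM (0.50 ± 0.16, adjusted p = 0.118) and higher in 12 of 13 pairs. With strain and region as covariates it was called (0.48, adjusted p = 0.0158), and also without WSB/EiJ (0.54, adjusted p = 0.0129) and with DESeq2 (0.49, adjusted p = 0.0358). With the endothelial marker mean as a covariate it was -0.07 (adjusted p = 0.994). Mcam was 40.9 against 20.2 CPM (1.03 ± 0.35, adjusted p = 0.208) and higher in 11 of 13 pairs. Cdh5 was 1011 against 842 CPM (adjusted p = 0.403), and Pecam1 926 against 857 CPM (adjusted p = 0.651).

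Other cell types moved with the tag. The 20 other endothelial markers summed to 17120 to 25186 CPM (median 23710) in male high libraries and to 15222 to 20541 CPM (median 17853) in low ones. Pericyte markers had medians of 3905 and 6863 CPM, with ranges of 2330 to 9013 and 2799 to 9756 CPM, and astrocyte markers 3257 and 5309 CPM, with ranges of 1486 to 7324 and 3156 to 19727 CPM. Neuronal markers had medians of 125 and 288 CPM and oligodendrocyte markers 35.8 and 121 CPM. The part of these cell types in the differences was not tested. With the endothelial mean as a covariate, Esam was no longer called (0.33, adjusted p = 0.634), and Ctnnb1 was (-0.71, adjusted p = 0.00714). Esam was also not called without A/J (adjusted p = 0.0811), C57BL/6J (0.0908) or CAST/EiJ (0.0841), while its difference stayed between 0.54 and 0.70 with any 1 strain left out. Ctnnb1 was not called without 129S1/SvImJ (adjusted p = 0.0616), C57BL/6J (0.145) or CAST/EiJ (0.106), and its difference stayed between -0.52 and -0.40.

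Between the sexes the same 2 members were called, Esam higher and Ctnnb1 lower in female libraries, in a comparison that called 2.85% of all genes. Esam ranged from 195 to 695 CPM in females, with a median of 408, and from 165 to 498 CPM in males, with a median of 273. The difference was 0.61 ± 0.14 (adjusted p = 0.0039). Ctnnb1 ranged from 519 to 1685 CPM in females, with a median of 834, and from 737 to 2111 CPM in males, with a median of 1326, a difference of -0.53 ± 0.13 (adjusted p = 0.00884). Both genes overlapped between the sexes. Astrocyte markers summed to 1127 to 4918 CPM in females (median 2557) and 1486 to 19727 CPM in males (median 4059), and pericyte markers to 2161 to 9058 CPM (median 3887) and 2330 to 9756 CPM (median 5313). Their part in the differences was not tested. Of all calls, 89.8% were higher in females with TMM and 73.5% with the size factors of DESeq2, which moved the median of all genes from -0.12 to -0.24. Under the latter Esam was 0.47 (adjusted p = 0.0497) and Ctnnb1 -0.64 (adjusted p = 0.00069).

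Sex cannot be told apart from the rRNA-like share, which did not overlap between the sexes, and it also ran with the title tag, since 15 of 16 female libraries are titled high. Among libraries titled high the differences were 0.35 for Esam and -0.31 for Ctnnb1, and neither was called (adjusted p = 0.334 and 0.388). With the rRNA-like share as a covariate Ctnnb1 was -0.08 (adjusted p = 0.953) and Esam 0.71 (adjusted p = 0.267). The female libraries fell into 2 ranges of this share: 9.66% to 12.1% in the 5 of NOD/ShiLtJ, CAST/EiJ and A/J, and 1.59% to 4.05% in the 11 of the other strains. Ctnnb1 was 1300 to 1685 CPM in the former and 519 to 1180 CPM in the latter, which do not overlap. Between the sexes within the former strains, Ctnnb1 differed by -0.04 (adjusted p = 0.953), and within the latter by -0.82 (adjusted p = 0.00025). Esam differed by 0.54 and 0.60, neither called (adjusted p = 0.56 and 0.0682).

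**Figure D4:**
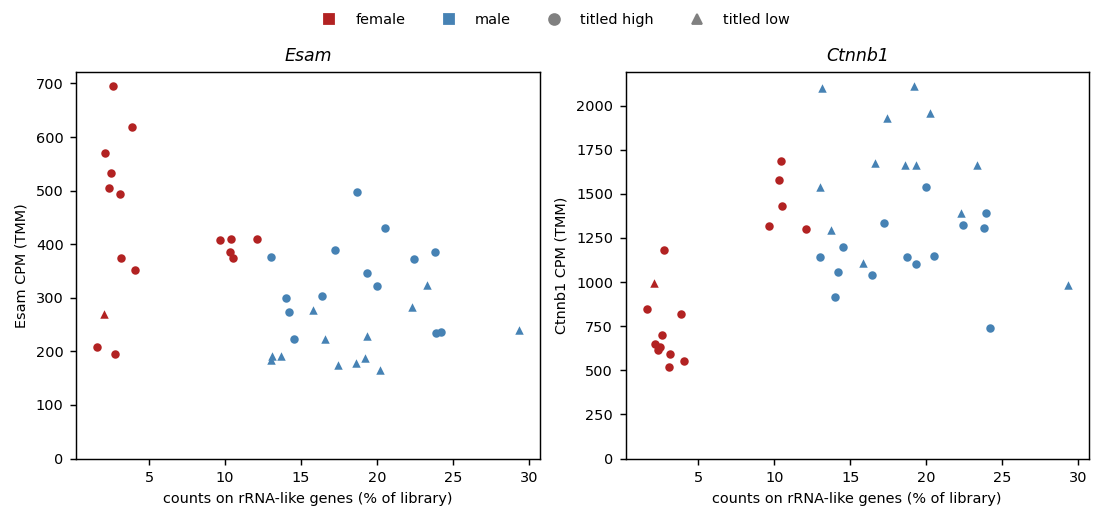
CPM of Esam and Ctnnb1 (vertical axes) against the percentage of a library's counts on rRNA-like genes (horizontal axes); points are the 43 libraries, coloured by sex and shaped by title tag. Female libraries lie at 1.59% to 12.1% and male ones at 13% to 29.3%, and the 11 female libraries under 5% hold 519 to 1180 CPM of Ctnnb1.

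Of 55 other genes of cadherin contacts that were listed and tested, the test among strains called 5, where 2.68% of all genes were called. By role this was none of 20 in the cadherin and catenin plaque, none of 5 nectins, 4 of 22 regulators of VE-cadherin contacts and 1 of 8 other adhesion and sialomucin genes. The smallest p belonged to Magi1, a junctional scaffold (adjusted p = 0.00379), Heg1, a transmembrane partner of the CCM proteins (adjusted p = 0.00945), and S1pr1, a sphingosine-1-phosphate receptor (adjusted p = 0.0115). Heg1 was higher in CAST/EiJ, at 1970 ± 303 CPM (SD, n = 6) against 1320 ± 324 CPM (n = 37).

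In 129S1/SvImJ 4 of the 55 were called and all 4 were lower, beside 1.46% of all genes, of which 344 were higher and 82 lower. They included Podxl, a sialomucin (897 ± 318 against 1321 ± 292 CPM), and S1pr1 (218 ± 108 against 392 ± 141 CPM). Another was Ptprb, the phosphatase VE-PTP that binds VE-cadherin (2439 ± 539 against 3102 ± 283 CPM). Of the 9 libraries of 129S1/SvImJ 6 were female. In its female cortex libraries the other endothelial markers summed to 13533, 20210, 16270 and 12892 CPM. Neuronal markers summed to 800, 130, 523 and 656 CPM in the same libraries. The titles of these cortex libraries end in a number, except that of the library with 20210 CPM of endothelial markers. A female hippocampus library of this strain, with 27029 CPM, also has such a number, and no title of another strain does. Its meaning is not given in the sources used here. The part of sex, of cell types and of the title number in the differences of the 4 genes was not tested. In WSB/EiJ 4 were called, 2 in each direction, beside 2.41% of all genes. Cdc42 was lower (56.1 ± 29.8 against 128 ± 36.2 CPM), as was the receptor phosphatase Ptprj (29.4 ± 28.3 against 92.2 ± 31.5 CPM). Magi1 was higher (94.5 ± 64.4 against 48.9 ± 27.6 CPM), and so was Ajuba, a LIM protein, at 59.4 ± 113 CPM with an SD larger than its mean. The median log2 difference of the 55 genes in WSB/EiJ was 0.02, and that of all genes was -0.72. All genes include those that reached 0.5 CPM in only 1 library, and WSB/EiJ libraries were shallow. The medians may therefore not be of genes of like level.

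By title tag in male mice 4 of the 55 were called, beside 1.06% of all genes. Icam2, an adhesion protein of the EC surface, was 85.7 ± 26.1 CPM in high and 35.1 ± 16.4 CPM in low libraries (1.30 ± 0.23, adjusted p = 0.00074), and S1pr1 462 ± 110 and 299 ± 133 CPM. Lower in high libraries were the phosphatase gene Ptpn11 (217 ± 57.6 against 344 ± 46.3 CPM) and Pkp4 (229 ± 38.5 against 348 ± 73.6 CPM), an armadillo protein related to p120-catenin. The list median was 0.09 and that of all genes 0.04. Between the sexes 5 were called, all higher in females, beside 2.85% of all genes, of which 745 of 830 were higher in females. Among the 5 were Actn4 (683 ± 148 against 507 ± 88.9 CPM), Magi1 (78.5 ± 48.5 against 41.5 ± 19.5 CPM) and Icam2 (111 ± 43.2 against 61.3 ± 33.6 CPM). Origin and region called none of the 55, and A/J, C57BL/6J, DBA/2J and NOD/ShiLtJ none either.

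Across the 43 libraries, which share their depth and purity with every gene measured in them, Cdh5, Pecam1, Cd34 and Emcn had the highest correlations among the members. Pearson's r of log2(CPM+1) was 0.71 between Cdh5 and Pecam1, 0.63 between Pecam1 and Cd34, 0.62 between Pecam1 and Emcn, 0.55 between Cd34 and Emcn and 0.51 between Cdh5 and Emcn. These were the 5 of 36 pairs above 0.5. With the same 4 genes, the r of Ctnnb1 ran from -0.13 (Emcn) to 0.33 (Pecam1), that of Ctnnd1 from -0.29 (Cdh5) to -0.03 (Emcn) and that of Ctnna1 from 0.11 (Pecam1) to 0.19 (Emcn). That of Esam ran from 0.18 (Pecam1) to 0.43 (Cdh5) and that of Mcam from 0.15 (Emcn) to 0.42 (Cd34). Within female libraries the r of Ctnna1 was 0.41 with Cdh5, 0.41 with Pecam1, 0.52 with Cd34 and 0.47 with Emcn. Mcam had an r of 0.71 with Cdh5 and 0.75 with Pecam1 in females, but 0.03 and 0.10 in males. Esam had 0.70 with Cdh5 in females and 0.50 in males. Ctnnb1 ran against Esam (-0.57) and Ctnnd1 (-0.56), also within male libraries (-0.49 and -0.40) and within female ones (-0.34 and -0.64). Its r with Ctnna1, its partner in the complex, was -0.02 over all libraries, 0.22 within male and 0.30 within female libraries.

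Of 8679 genes with a mean of at least 10 CPM, those most like Cdh5 over the 43 libraries were Slc38a3 (r = 0.80), Podxl (0.79) and Ephb4 (0.78). For Pecam1 they were Slc6a6 (0.79), Podxl (0.78) and Ets2 (0.76), and for Cd34 Cd93 (0.85), H3f3a (0.81) and Entpd1 (0.78). Esam was most like Arl4a (0.78), Ramp2 (0.75) and H3f3b (0.75). Ctnnb1 was most like Kif26a (0.85), Wwtr1 (0.82) and Gm24270 (0.79). For Emcn they were Tax1bp3 (0.72), Nup88 (0.70) and Smim14 (0.67). The best values were lower for Ctnnd1 (Rtp4, 0.69, Srrt, 0.65, and Rmi1, 0.64), Mcam (Rnpep, 0.67, Rdh11, 0.66, and Junb, 0.66) and Ctnna1 (Tceal9, 0.62, Tufm, 0.59, and Ftsj3, 0.59).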

How the data were processed

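RNA of sorted EC was sequenced in 43 libraries. The authors prepared stranded libraries from rRNA-depleted RNA, aligned reads to mm10 with HISAT2 2.1.0, handled alignments with SAMtools 1.9 and counted reads per gene with featureCounts of Subread 1.4.4; the deposited values are raw counts, with no normalization. No row lacked a gene, and no 2 libraries were identical.

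Counts were scaled by TMM and tested with edgeR's quasi-likelihood test (versions: edgeR 4.0.16, DESeq2 1.42.0 and R 4.3.3), two-sided, with no covariates and Benjamini-Hochberg adjustment at 0.05 over all genes that reached 0.5 CPM in 1 library or more, the authors' filter. Bias-adjusted deviances and a trended dispersion were used, a setting picked in earlier work on these data after numbers of calls had been seen. On simulated counts, unchanged genes of 10 CPM or more passed an unadjusted p of 0.05 at the nominal rate by title tag and slightly above it for 1 strain. False calls made up more of all adjusted calls than nominal, most of them at genes under 10 CPM, so the percentages of all genes called may run high. Few 2-fold changes of 1 strain were recovered, so a missed threshold says little.

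CPM was computed from the counts and the scaled library total. The members and lists were chosen with earlier results of these data known. Named were all members, for each direction up to 3 called list genes, by smallest p, and for each member the 3 genes with the highest r. Of 56 list genes, 1 whose symbol named more than 1 row was left out. Covariate fits left out genes fitted at over 5 times their largest count. Positions are from GENCODE M21. Alternatives were other scaling, filters, tools, covariates, subsets and libraries or strains left out. Intervals cover the spread between libraries only.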

Additional observations from a re-analysis of the deposited data

Results flagged for a closer look

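In 6 of 63 groups of 1 gene in 1 strain, a single library lay far from the others by Dixon's test. Chance alone gives this in about 1 in 20 groups of like libraries. The groups here mix sex, region and tag, and the genes share libraries, so that rate need not hold. The female hippocampus library of DBA/2J, the only female library of that strain, was highest in 3 genes: Esam at 504 CPM (others 183 to 273), Ctnnd1 at 67.0 CPM (others 16 to 24.9) and Emcn at 254 CPM (others 130 to 151). Esam was highest in a female cortex library of WSB/EiJ, at 618 CPM (others 236 to 352). Pecam1 was lowest in a male hippocampus library of CAST/EiJ titled low, at 745 CPM (others 980 to 1075). Ctnna1 was lowest in a male cortex library of 129S1/SvImJ titled high, at 220 CPM (others 387 to 536).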

How the results depend on the processing

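The number of members called among strains (2) was 3 with the legacy fit and with the endothelial mean as a covariate, 1 with the DESeq2 size factors, with DESeq2, with the stricter filter, with the rRNA-like share as a covariate and in male libraries, and 0 in cortex alone, in hippocampus alone and, chosen after seeing the data, without WSB/EiJ in all or in male libraries. Leaving out 1 library gave 1 to 2. Of 1 strain against the others (1 call in 63 tests), the number was 6 with the legacy quasi-likelihood fit, 4 with the endothelial mean as a covariate, 2 without a filter, with the rRNA-like share, with sex, region and tag, in male libraries and, added later, in male libraries with region and tag, and 0 in cortex and, added later, without WSB/EiJ. Leaving out 1 library gave 1 to 2. Wild-derived against long-inbred (0) gave 1 without CAST/EiJ, and cortex against hippocampus gave 0 throughout. By title tag (2) the number was 5 with the legacy fit, 3 with DESeq2, with strain and region as covariates and without WSB/EiJ (Cd34 added in each), 1 with the endothelial mean or without 129S1/SvImJ or A/J, and 0 in cortex, in hippocampus and without C57BL/6J or CAST/EiJ. Between the sexes (2) it was 3 with DESeq2 (Pecam1 added, adjusted p = 0.0247), 1 with counts drawn down to the smallest total, without 129S1/SvImJ, C57BL/6J or DBA/2J and, added later, in the other 4 strains, and 0 with the rRNA-like share, with libraries titled high and, added later, in A/J, CAST/EiJ and NOD/ShiLtJ. No member called in the main fits (TMM, edgeR, no covariates) reversed its direction under any alternative run. Members called only under some alternatives did change sign over the planned ones. Cd34 ran from -0.07 to 0.66 by title tag and from -1.04 to 0.19 by origin. Esam in WSB/EiJ ran from -0.34 to 0.70. The causes of these changes in count and direction were not tested. The counts of members are not set beside the share of all genes called under each alternative. They therefore do not tell whether members changed more than other genes.

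Calls over all genes depended more on the fit. The legacy fit called 13525 genes among strains (781 in the report), 6712 by origin (218), 8023 by region (22), 8327 by tag (293) and 10473 by sex (830). DESeq2 called 1314, 395, 55, 640 and 1000. The legacy fit tested 29120 genes, or 27529 by tag, so its numbers of called members stand beside large counts of all genes. For the contrasts of 1 strain under alternatives, such counts are not given here. Subsets and covariates took the strain count down to 184, the origin count to 7 (counts summed per strain), the region count from 11 to 46, the tag count from 5 to 560 and the sex count down to 17. No paired analysis was possible because the labels do not tie libraries to mice. Mcam and Ctnnd1 had as few as 1 count in a library, in libraries of 5257353 and 3987720 counts. The shallowest library, of 1626534 counts, held 84 counts of Mcam and 70 of Ctnnd1.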
